A study of Mus musculus with 6 samples.

Results

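Lipolysis, the release of fatty acids and glycerol from stored triglyceride, was followed through the messenger RNA of 9 genes in whole visceral adipose tissue, the fat around the abdominal organs. The genes were chosen by symbol for their roles: the lipases Pnpla2, Lipe and Mgll, the lipase cofactors Abhd5 and G0s2, the adrenergic receptors Adrb3 and Adra2a, the cyclic AMP phosphodiesterase Pde3b and the glycerol channel Aqp7. All 9 were among the 55011 gene symbols counted. Of these 9, 8 had enough counts to be among the 13859 genes tested, and Adra2a did not.

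The 6 samples came from male C57BL/6 mice aged 30 weeks that had eaten low-fat food for 14 weeks and high-fat food for 16 weeks, with tissue collected at zeitgeber time 0 h, when lights come on. Every mouse carried Foxp3.Cre-YFP, a Cre recombinase driven by the regulatory T cell gene Foxp3. The 3 Bmal1WT samples and the 3 Bmal1KO samples differed in Bmal1 (gene symbol Arntl), which encodes a transcription factor of the circadian clock. The comparison asks how fat differs after long high-fat feeding when Bmal1 is removed where Foxp3 is expressed. The Cre is thus aimed at a rare lymphocyte and not at the fat cell, and the labels do not say whether each sample is a separate animal, so each p-value reflects only how these samples vary, which may be technical variation. Arntl itself averaged 33.2 ± 6.16 CPM (SD over 3 libraries; CPM is the count scaled to a library of 1000000 counts) in the Bmal1WT group against 40.1 ± 8.06 CPM in the other, and Foxp3 had 0 to 3 counts per library, so neither is a firm check of the genotype in whole tissue.

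In a fasting or stressed animal, catecholamines from sympathetic nerves bind beta-adrenergic receptors on fat cells, cyclic AMP rises, and protein kinase A phosphorylates the droplet coat and hormone-sensitive lipase. Adipose triglyceride lipase, hormone-sensitive lipase and monoglyceride lipase then cut the fatty acids off in turn, and glycerol leaves through a channel. Insulin acts the other way, in large part by activating the phosphodiesterase encoded by Pde3b, which destroys cyclic AMP, and alpha-adrenergic receptors coupled to Gi also hold the pathway back. In obesity, fat commonly becomes less responsive to catecholamines.

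Libraries held 6514620 to 9529198 counts. Bmal1KO replicate 1, the shallowest, had counts on 30019 genes, against 19009 to 20145 in the other 5 libraries. Bmal1WT replicate 1 held 304 CPM of 10 epididymis and testis markers, which summed to between 0 and 2.11 CPM elsewhere. All 12 fat cell markers of a fixed list (Adipoq, Cidec, Lpl and others) were detected in every library, and their sum ran from 37102 to 45651 CPM in Bmal1WT. In Bmal1KO it was 47842, 28233 and 22676 CPM in replicates 1 to 3, which is 115%, 67.8% and 54.4% of the Bmal1WT mean. Of 14 summed marker lists, 3 were higher and 2 lower in Bmal1KO without overlap between the groups, and 9 overlapped, the fat cell list among them. T cell markers lay between 29.2 and 66.0 CPM in Bmal1WT and between 88.1 and 171 CPM in Bmal1KO, mast cell markers between 72.6 and 146 CPM against 254 to 390 CPM, and mesothelial markers between 198 and 366 CPM against 413 to 475 CPM. Mural cell markers lay between 453 and 462 CPM against 299 to 404 CPM. The list of liver and pancreas markers lay between 139.9 and 181 CPM against 81.3 to 118 CPM. Nearly all of that sum was 1 gene, Cela1, at 154 ± 22.2 and 91.9 ± 16.5 CPM. Prss1 of the same list had 0 counts, so the sum does not show either tissue. Macrophage markers overlapped, at 8320 to 12599 CPM and 8339 to 17757 CPM. The part of these shifts in the results below was not tested. In RNA of whole tissue, fewer fat cells and less RNA per fat cell cannot be told apart.

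Of the 8 lipolysis genes tested, 7 were fitted lower in Bmal1KO and 1, Pde3b, higher, with a median log2 fold change of -0.29 against 0.02 over all genes tested. The 12 fat cell markers were likewise all fitted lower, with a median of -0.37, so a lower level was not particular to the lipolysis genes. After Benjamini-Hochberg adjustment 0 of the 8 passed the quasi-likelihood test of edgeR, which called 0% of the 13859 genes. At an unadjusted p under 0.05, 2 of the 8 were lower, G0s2 and Aqp7, and 0 higher, where 4.26% of all genes tested were lower and 5.05% higher. DESeq2 put 2 of the 8 and limma voom 3 of the 8 under that unadjusted level, all lower, where 4.51% and 6.17% of all genes were so by the same tools. After adjustment both called 0 of the 8, and DESeq2 called 0.417% of all genes. Among all genes tested 48% had a fitted change below 0. The 3 Bmal1KO values lay below all 3 Bmal1WT values for 3 of the 8, namely Abhd5, G0s2 and Aqp7, where 7.85% of all genes did so, and 0 of the 8 lay above them without overlap, where 7.83% of all genes did. With CPM scaled by library size alone the count was 0 of the 8, where 4.99% of all genes were lower and 11.2% higher without overlap. The genes were chosen with earlier results of these data known, so these counts are a description.

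**Figure D1:**
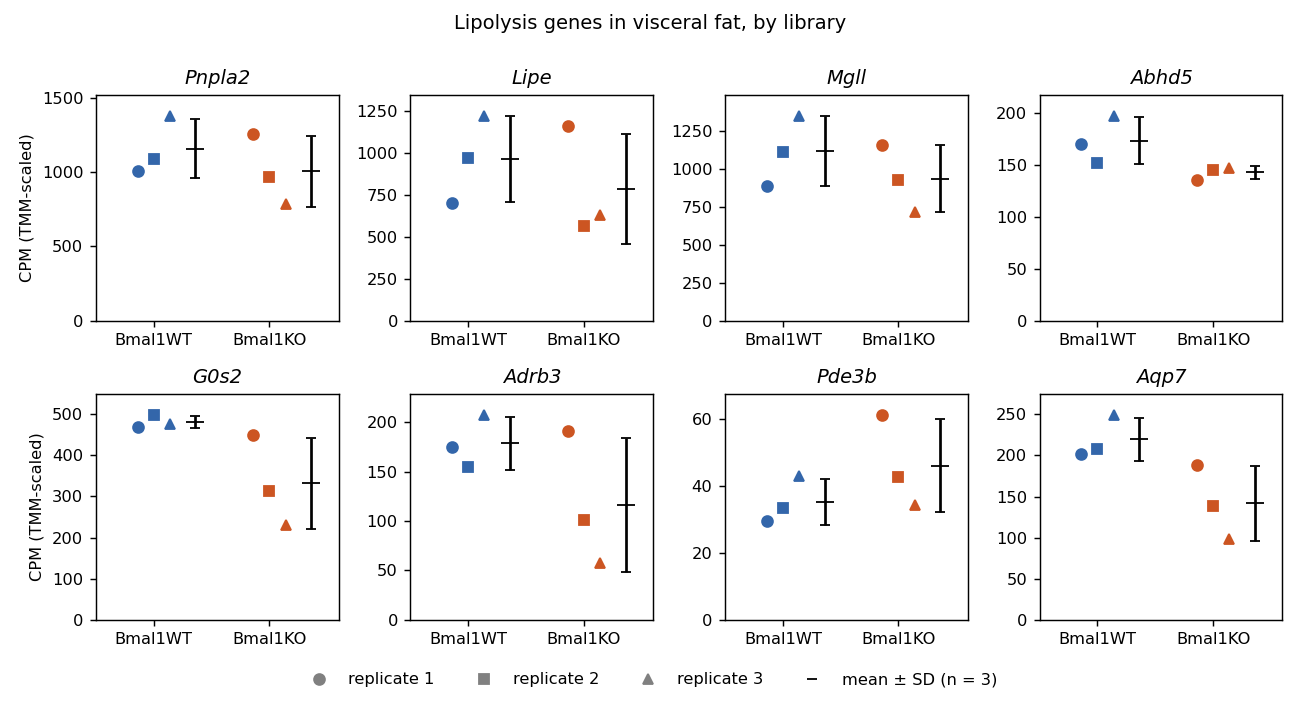
Level of each tested gene in CPM (vertical axes, linear from 0) in the 3 Bmal1WT and 3 Bmal1KO libraries, with the marker shape giving the replicate number and the bar the mean ± SD. Bmal1KO replicate 1 is the highest Bmal1KO library in 7 of the 8 panels, and in Abhd5, G0s2 and Aqp7 the groups do not overlap.

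The lipases were among the most abundant messages of the tissue and differed by less than their spread. Pnpla2 (ENSMUSG00000025509.15, mm10 chromosome 7, 141455198 to 141460743) encodes adipose triglyceride lipase, which takes the first fatty acid off triglyceride. It was at 1007, 1086 and 1380.3 CPM in Bmal1WT replicates 1 to 3 and at 1259.6, 968 and 786 CPM in Bmal1KO replicates 1 to 3. Bmal1KO replicate 1 thus lay inside the Bmal1WT range and the other two lay below it, and the fitted log2 fold change was -0.20 with SE 0.21 (edgeR adjusted p = 0.790).

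Lipe (ENSMUSG00000003123.15, mm10 chromosome 7, 25379527 to 25398710) encodes hormone-sensitive lipase, the diglyceride lipase that protein kinase A phosphorylates. Its values were 705, 970.0 and 1223 CPM in Bmal1WT and 1165, 568 and 631 CPM in Bmal1KO. It had the widest relative spread of the lipases in both groups, with an SD of 0.40 log2 units in Bmal1WT and 0.56 in Bmal1KO, and its log2 fold change was -0.29 with SE 0.29 (edgeR adjusted p = 0.777). An antisense gene, 4732471J01Rik, shares 918 of the 5886 exon bases of Lipe and had 20 to 45 counts per library against 5017 to 11365 for Lipe, in libraries that do not mark the strand.

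Mgll (ENSMUSG00000033174.17, mm10 chromosome 6, 88724412 to 88828360) encodes monoglyceride lipase, which frees the last fatty acid and also breaks down the endocannabinoid 2-arachidonoylglycerol. It was at 888, 1111 and 1351 CPM in Bmal1WT against 1159, 924 and 718 CPM in Bmal1KO, so the groups overlapped as for Pnpla2. The log2 fold change was -0.26 with SE 0.22 (edgeR adjusted p = 0.738). Of the 28 pairs that the 8 tested genes form, Pnpla2 and Mgll had the most alike profiles: their log2 CPM values, each centred over the 6 libraries, differed by a root mean square of 0.07, against a median of 0.31 over the pairs and 0.63 for Adrb3 and Pde3b, the least alike.

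The upstream sequences of Pnpla2 and Mgll are shown because these genes moved most nearly together. Both are the 250 bases before a RefSeq start site on the plus strand of GRCm38.p6, at chr7:141454938-141455187 and chr6:88724162-88724411. They are printed 5′ to 3′ with an E-box in capitals.
Pnpla2: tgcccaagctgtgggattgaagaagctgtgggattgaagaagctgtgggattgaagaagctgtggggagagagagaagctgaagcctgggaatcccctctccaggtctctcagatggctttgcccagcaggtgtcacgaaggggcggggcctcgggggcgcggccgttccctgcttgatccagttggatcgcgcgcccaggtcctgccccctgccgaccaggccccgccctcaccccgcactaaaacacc
Mgll: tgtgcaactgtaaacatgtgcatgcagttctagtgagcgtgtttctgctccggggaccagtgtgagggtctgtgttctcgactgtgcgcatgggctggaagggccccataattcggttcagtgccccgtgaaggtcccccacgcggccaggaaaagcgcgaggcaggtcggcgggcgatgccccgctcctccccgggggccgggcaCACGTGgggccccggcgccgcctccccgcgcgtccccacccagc
The E-box CACGTG, the palindrome that BMAL1 with CLOCK can bind, stood 44 to 39 bases before this Mgll start. Of 32851 RefSeq windows of this length, 6.02% hold an E-box. The cyclic AMP response element TGACGTCA and its shorter form TGACG were in neither window, on either strand, and are held by 1.55% and 17.8% of all windows. Other words searched on both strands were TATAAA (12.4% of windows), CCAAT (33.8%), TTGCGCAA (0.164%) and TTATGTAA (0.819%), and these 2 windows held none. RefSeq windows were matched for 7 of the 9 genes, in 10 windows. A further Mgll window, at chr6:88724454-88724703, held none of these words, so the E-box belongs to only 1 annotated Mgll start. Besides Mgll, CACGTG was in windows of Lipe (155 to 150 bases before a start) and of Adra2a (80 to 75 bases before it), and TGACG, which lies inside TGACGTCA, in those of Abhd5, Adra2a and G0s2. The window of Adra2a also held TATAAA. A match is a match of letters, and binding was not measured.

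The lipase cofactors both lay lower in all 3 Bmal1KO libraries, by different amounts and with different spreads. Abhd5 (ENSMUSG00000032540.16, mm10 chromosome 9, 122351608 to 122381524) encodes CGI-58, the protein that activates adipose triglyceride lipase once perilipin lets it go. It was at 171, 152 and 198 CPM in Bmal1WT against 136, 145 and 147 CPM in Bmal1KO, and the nearest values of the groups were 4.92 CPM apart. Its log2 fold change was -0.28 with SE 0.16 (edgeR adjusted p = 0.601). Abhd5 was the exception to the order of the other 7 genes within Bmal1KO: its value in replicate 1 was the lowest there, while the others were highest in that library, as were 38% of all genes tested. The antisense gene A730085K08Rik, which shares 950 of its 5956 exon bases, had 0 to 2 counts.

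G0s2 (ENSMUSG00000009633.3, mm10 chromosome 1, 193272161 to 193273217) encodes a small protein that binds adipose triglyceride lipase and inhibits it. Its 3 Bmal1WT values of 469, 499 and 475 CPM were nearly equal, with an SD of 0.05 log2 units, whereas Bmal1KO had 450.3, 314 and 231 CPM, an SD of 0.48. The highest Bmal1KO library was 18.4 CPM below the lowest Bmal1WT library. The log2 fold change was -0.54 with SE 0.22 (edgeR unadjusted p = 0.0360, adjusted p = 0.495).

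Of the adrenergic receptors, Adrb3 was well expressed and Adra2a was all but absent. Adrb3 (ENSMUSG00000031489.15, mm10 chromosome 8, 27225776 to 27250616) encodes the beta-adrenergic receptor typical of rodent fat cells. It was at 175, 155 and 208 CPM in Bmal1WT against 191, 101 and 57.8 CPM in Bmal1KO. Bmal1KO replicate 1 sat in the middle of the Bmal1WT values and replicates 2 and 3 below all of them. Its SD in Bmal1KO, 0.86 log2 units, was the largest of the 8 genes, and the log2 fold change was -0.62 with SE 0.35 (edgeR adjusted p = 0.609). The antisense gene Gm45470 shares 839 of its 3376 exon bases and had 8 to 25 counts per library.

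Adra2a (ENSMUSG00000033717.6, mm10 chromosome 19, 54044151 to 54048982) encodes the alpha-adrenergic receptor that lowers cyclic AMP through Gi. It had 2, 0 and 0 counts in Bmal1WT and 0, 0 and 4 in Bmal1KO. A count of 0 allows up to 3 counts, or 0.323 to 0.451 CPM in these libraries, which covers counting error only. At this depth a difference at such low levels could not have been detected, and no fold was computed.

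Pde3b, the brake on cyclic AMP, was the single gene of the 8 fitted higher. Pde3b (ENSMUSG00000030671.9, mm10 chromosome 7, 114415281 to 114539251) was at 29.4, 33.3 and 42.8 CPM in Bmal1WT against 61.2, 42.6 and 34.2 CPM in Bmal1KO. The groups overlapped and the highest value was that of Bmal1KO replicate 1. The log2 fold change was 0.38 with SE 0.24 (edgeR adjusted p = 0.647) and 0.13 with SE 0.23 without that library.

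Aqp7 (ENSMUSG00000028427.13, mm10 chromosome 4, 41033074 to 41048139), the aquaglyceroporin through which fat cells release glycerol, had the smallest p of the 8. It was at 201, 208 and 249.6 CPM in Bmal1WT against 189, 139 and 98.1 CPM in Bmal1KO. All Bmal1KO values lay below all Bmal1WT values, replicate 1 by 12.2 CPM, and the log2 fold change was -0.63 with SE 0.22 (edgeR unadjusted p = 0.0175, adjusted p = 0.458). Over the 6 libraries its profile was nearest to that of G0s2 among the 8 genes, at a root mean square difference of 0.12 in centred log2 CPM. The 247 bases before its first annotated exon, at chr4:41048140-41048386 on the minus strand of GRCm38.p6 (RefSeq), are shown as the upstream sequence of the gene with the smallest p. The words listed above were not found in the 250-base window, so it has no capitals.
Aqp7: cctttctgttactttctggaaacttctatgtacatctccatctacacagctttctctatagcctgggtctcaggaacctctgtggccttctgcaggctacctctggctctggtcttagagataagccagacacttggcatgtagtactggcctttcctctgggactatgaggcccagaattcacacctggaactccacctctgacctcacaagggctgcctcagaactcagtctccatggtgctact

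Leaving out Bmal1KO replicate 1 changed the outcome for 3 of the 8. Without that library edgeR called G0s2 (log2 fold change -0.82, SE 0.16, adjusted p = 0.0440), Adrb3 (-1.18, SE 0.23, adjusted p = 0.0440) and Aqp7 (-0.89, SE 0.19, adjusted p = 0.0483) lower, when 0.772% of the 14247 genes then tested were called lower. Lipe at -0.69 (SE 0.21, adjusted p = 0.127), Mgll at -0.45 (SE 0.19) and Pnpla2 at -0.40 (SE 0.17) were not called, and Abhd5 hardly moved at -0.25 (SE 0.16). Groups of 3 and 2 libraries then did not overlap for 6 of the 8 genes, all lower, where 17.1% of all genes were lower without overlap. In the opposite case, without Bmal1KO replicate 3, G0s2, Adrb3 and Aqp7 were at -0.34, -0.30 and -0.43 and none was called, and Pnpla2, Lipe and Mgll were at -0.06, -0.16 and -0.11. Without Bmal1WT replicate 3, the highest Bmal1WT library for 7 of the 8 genes, Pnpla2 was at -0.06 (SE 0.24), Lipe at -0.09 (SE 0.32), Mgll at -0.10 (SE 0.24) and Abhd5 at -0.17 (SE 0.17). Lipe also moved to -0.11 without Bmal1KO replicate 2 and to -0.48 without Bmal1WT replicate 1, where Mgll was at -0.40. Bmal1KO replicate 1 is, of the Bmal1KO libraries, the one with the fat cell marker sum nearest to Bmal1WT, at 115% of the Bmal1WT mean. It is also the one with counts on the most genes. Bmal1KO replicates 2 and 3, which remain without it, had marker sums of 67.8% and 54.4% of that mean. The part of the marker sum or of the gene count in the result was not tested.

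**Figure D2:**
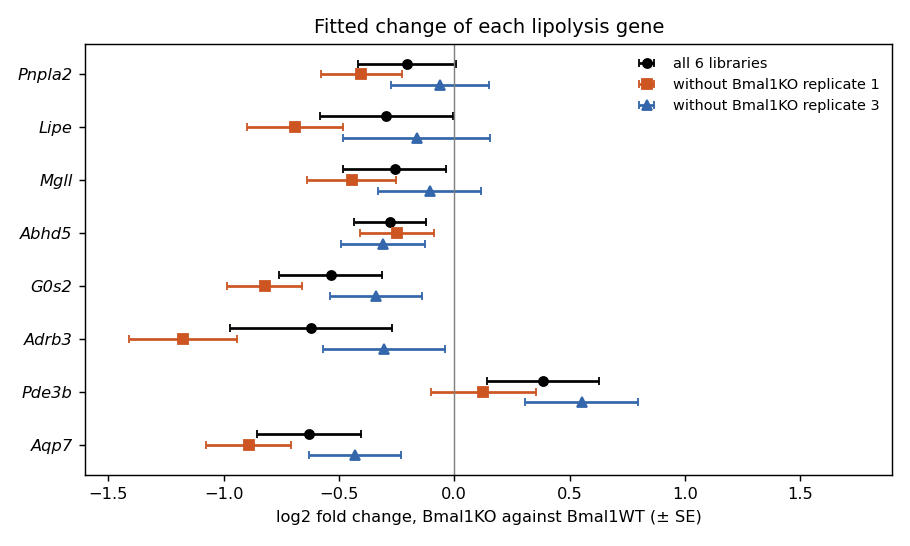
Fitted log2 fold change of Bmal1KO against Bmal1WT (horizontal axis) with its SE for each of the 8 tested genes, from all 6 libraries, without Bmal1KO replicate 1 and without Bmal1KO replicate 3. Without replicate 1 the points for G0s2, Adrb3 and Aqp7 lie furthest left, at -0.82, -1.18 and -0.89, and Pde3b alone stays to the right of 0.

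Counted against fat cell RNA, of the 7 genes fitted lower 4 were a little higher in the Bmal1KO mean and 3 lower. Each gene's counts were divided by the summed counts of the 12 fat cell markers in the same library. On this scale Pnpla2 made up 2.71%, 2.57% and 3.02% of the marker counts in Bmal1WT and 2.63%, 3.43% and 3.47% in Bmal1KO, a difference of the log2 means of 0.19 with overlapping groups (exact permutation p = 0.3, 2-sided). Mgll differed by 0.14 (exact permutation p = 0.4), Abhd5 by 0.13 (p = 0.8 by the same exact test) and Lipe by 0.07 (exact p = 0.7). All 4 lay below the median over all genes tested on this scale, 0.41. G0s2, Aqp7 and Adrb3 remained lower in the mean, by -0.18, -0.26 and -0.37 (exact p = 0.2 for each), with overlapping groups. These values depended on the markers: against Adipoq, Cidec and Plin1 alone they were -0.04, -0.12 and -0.23, and against the mean log2 of the 12 markers 0.0028, -0.08 and -0.19, while the lipases and Abhd5 lay between 0.22 and 0.37 on these scales. Adrb3 was at 0.471%, 0.366% and 0.455% of the marker counts in Bmal1WT against 0.399%, 0.357% and 0.255% in Bmal1KO. Without Bmal1KO replicate 1, G0s2, Aqp7 and Adrb3 differed by -0.12, -0.19 and -0.50 relative to the 12 markers (exact permutation p = 0.4, 0.3 and 0.2). Their fitted log2 fold changes without that library were -0.82, -0.89 and -1.18.

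Pde3b was the exception on this scale. It made up 0.0793%, 0.0787% and 0.0938% of the marker counts in Bmal1WT and 0.128%, 0.151% and 0.151% in Bmal1KO. The groups did not overlap and the log2 means differed by 0.77 (exact permutation p = 0.1, the smallest that 3 against 3 allows, and 0.4 after adjustment over the 8 genes). Since the fat cell markers themselves were lower, genes in general lay higher on this scale: the median over all genes tested was 0.41, 12.2% of them were higher and 0.758% lower without overlap, and 77.5% had a smaller difference than Pde3b. Its difference is thus not unusual among all genes. T cells, whose summed markers were higher in all 3 Bmal1KO libraries, also express Pde3b, and their part in its level was not tested.

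**Figure D3:**
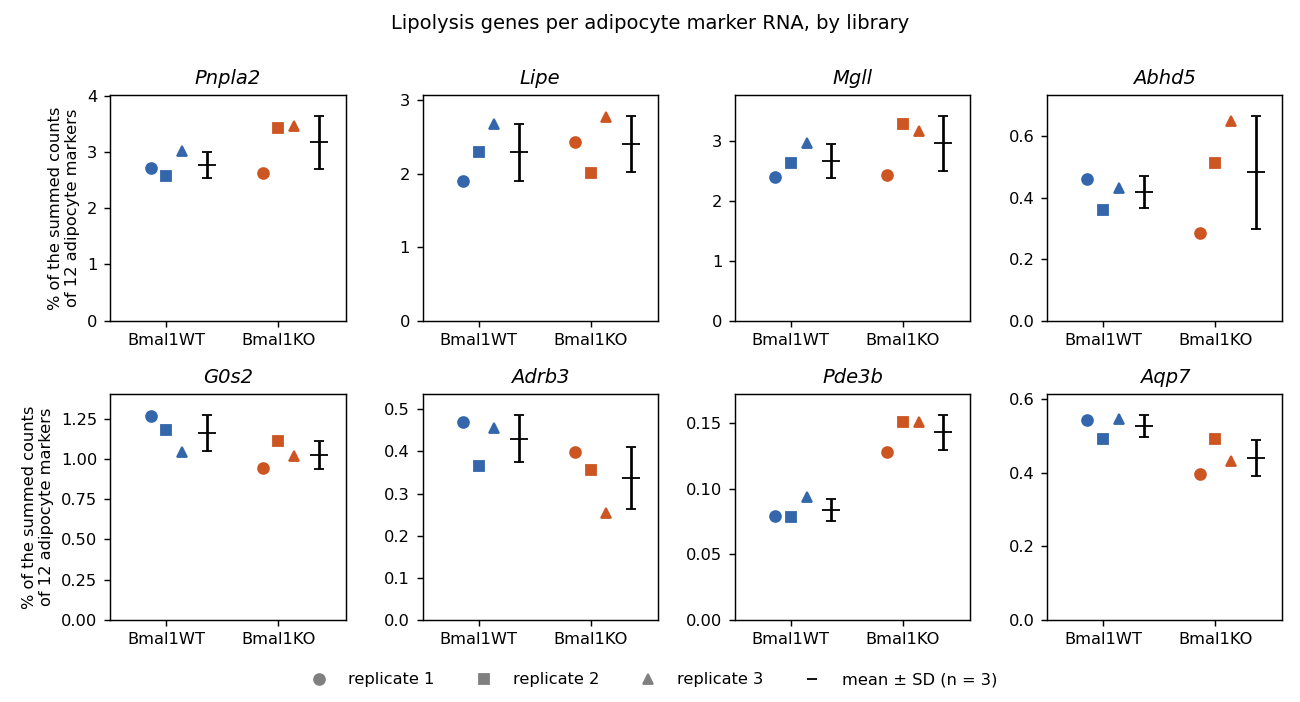
Counts of each tested gene as a percentage of the summed counts of 12 fat cell markers in the same library (vertical axes, linear from 0), with marker shapes for the replicates and mean ± SD. Only for Pde3b do the groups not overlap, at 0.0787% to 0.0938% in Bmal1WT and 0.128% to 0.151% in Bmal1KO.

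Levels of different genes were compared as CPM per kilobase of merged exon (RPKM). In Bmal1WT the order was G0s2 at 552 ± 18.0 RPKM (SD, n = 3), Pnpla2 at 383 ± 65.2, Mgll at 219.9 ± 45.5, Lipe at 164 ± 44.0, Aqp7 at 77.6 ± 9.29, Adrb3 at 53.0 ± 7.96, Abhd5 at 29.2 ± 3.84 and Pde3b at 3.86 ± 0.757 RPKM, with Adra2a near 0. Neighbours in this order overlapped over the 3 libraries only for Mgll and Lipe. In Bmal1KO the order of the means was the same, with overlaps for G0s2 and Pnpla2, Mgll and Lipe, Aqp7 and Adrb3, and Adrb3 and Abhd5. The inhibitor G0s2 was thus the most abundant message of the set per length in each of the 6 libraries. Per base of the longest transcript this held in Bmal1WT, whereas in Bmal1KO the means of G0s2 and Pnpla2 were 381 and 383. Its activating counterpart Abhd5 was at 29.2 ± 3.84 RPKM in Bmal1WT and 24.0 ± 1.01 RPKM in Bmal1KO with merged exons. With the longest transcript Abhd5 was at 55.0 ± 7.24 and 45.3 ± 1.91 RPKM, and Adrb3 at 64.1 ± 9.61 and 41.7 ± 24.3 RPKM. On that length Abhd5 and Adrb3 overlapped in Bmal1WT, and the order of their means was reversed in Bmal1KO. Adrb1, another beta-adrenergic receptor, named here after its values were seen, had 0 to 12 counts per library, the most in Bmal1KO replicate 1.

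**Figure D4:**
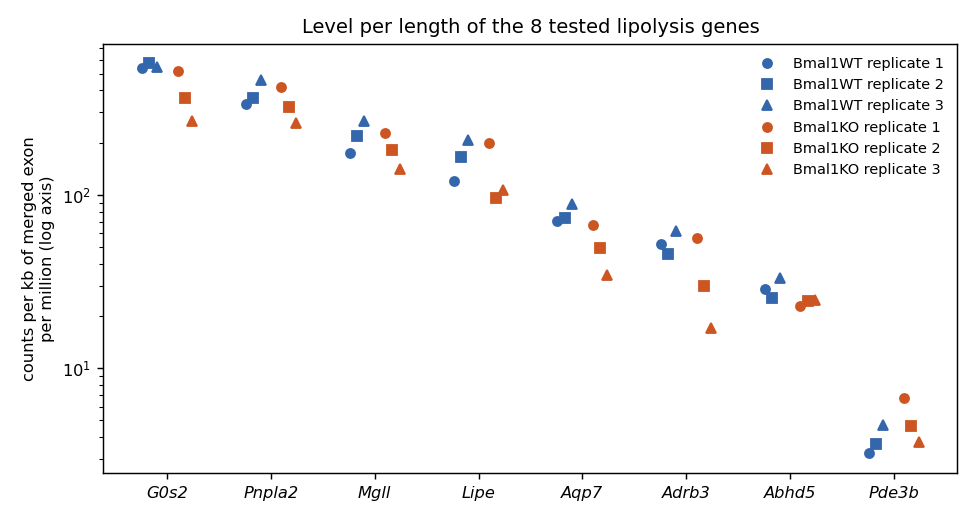
Level per length (vertical log axis, CPM per kilobase of merged exon) of the 8 tested genes in each library, ordered by the Bmal1WT mean. G0s2 is highest at 552 RPKM and Pde3b lowest at 3.86 RPKM in Bmal1WT.

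The other genes of the pathway were read from 10 lists by role, with 91 genes in the table and 82 tested. None of the 82 passed edgeR's test over all genes. At an unadjusted p under 0.05, 12 of the 82 were lower and 3 higher, where 4.26% and 5.05% of all genes were, and their median log2 fold change was -0.13. Without Bmal1KO replicate 1, 8 of them were called, where 0.772% of all genes were called lower, and all 8 were lower: the caveolar genes Cav1 and Cavin1, the droplet coat gene Plin4, the lipase Pnpla3, the transporter Slc22a3 and the hormone receptors Ghr, Mc2r and Tshr. The lists with the lowest medians were the receptors and catecholamine handling. Of 6 other stimulatory receptors tested, 5 were fitted lower (median -0.49). Mc2r, the melanocortin receptor for ACTH, stood at 57.6 ± 7.03 CPM in the Bmal1WT libraries and 28.2 ± 14.4 CPM in the Bmal1KO libraries (-1.04 on the log2 scale, SE 0.31), and Mc5r had 12 to 28 counts per library in Bmal1WT and 1 to 5 in Bmal1KO. Of 7 inhibitory Gi-coupled receptors, 6 were fitted lower (median -0.40), among them the lactate receptor Hcar1 (61.1 ± 4.85 and 39.3 ± 10.3 CPM) and the prostaglandin receptor Ptger3 (111 ± 12.4 and 84.6 ± 10.9 CPM). Stimulatory and inhibitory receptors were thus fitted in the same direction.

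Downstream of the receptors the medians lay nearer to 0. Of 15 genes of the stimulatory G protein, adenylyl cyclases and protein kinase A, 10 were fitted lower and 5 higher (median -0.13). Prkacb, a catalytic subunit of protein kinase A, had the smallest p of the list at 25.0 ± 1.06 and 39.4 ± 3.22 CPM (log2 fold change 0.66, SE 0.19, edgeR adjusted p = 0.414), with no overlap, while the other main catalytic subunit, Prkaca, was at 96.5 ± 11.4 and 78.5 ± 9.997 CPM (-0.30, SE 0.17). Gnas, the stimulatory G protein, had only 8 to 21 counts per library; its locus holds overlapping genes, so this value is uncertain. The 4 Gi subunits had a median of 0.07, with Gnai1 at -0.27 (SE 0.24) and Gnao1 at 0.43 (SE 0.53). Of 10 other phosphodiesterase and natriuretic clearance genes 6 were fitted higher, as was Pde3b, with a median of 0.28. Pde8b (4.08 ± 1.12 and 7.87 ± 2.60 CPM) and Pde3a (4.22 ± 0.345 and 6.81 ± 1.99 CPM), the paralog of Pde3b, had the smallest p, at low levels. Insulin signalling genes had a median of 0.04, with Pik3cb at 0.74 (SE 0.61) and Akt2 at -0.21 (SE 0.18).

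Around the droplet, 9 of 12 coat and access genes were fitted lower (median -0.24). Plin1, Cidec and Fabp4, all fitted lower, are also among the fat cell markers, so the 2 lists are not separate. Cavin1, a caveolar coat protein, went from 3720.1 ± 45.1 CPM to 2486 ± 487 CPM, while Cidea, a droplet protein best known from brown fat, was at 3.52 ± 0.845 and 8.55 ± 0.444 CPM, without overlap in either case. Of 10 other lipases 6 were fitted lower (median -0.16), with Pnpla3, the relative of adipose triglyceride lipase, at 242 ± 17.6 and 145 ± 65.0 CPM (log2 fold change -0.74, SE 0.26) and the phospholipase Ddhd2 at 85.3 ± 5.41 and 60.7 ± 9.90 CPM. Of the glycerol genes all 4 tested were fitted lower (median -0.30), Gpd1, which makes glycerol phosphate, at 1420.1 ± 156 and 1078 ± 86.4 CPM and Aqp9 at 2.62 ± 0.699 and 1.91 ± 1.16 CPM. Of 5 catecholamine handling genes 3 were fitted lower (median -0.48), each at an unadjusted p under 0.05, among them Maob, an enzyme that breaks catecholamines down, and the transporter Slc22a3. Slc22a3 was at 62.0 ± 8.10 and 38.6 ± 16.3 CPM. Th and Dbh, which make catecholamines in nerves, had 0 counts in 5 of 6 libraries each. Their 1 and 10 counts were in Bmal1KO replicate 1, the library with counts on the most genes.

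**Figure D5:**
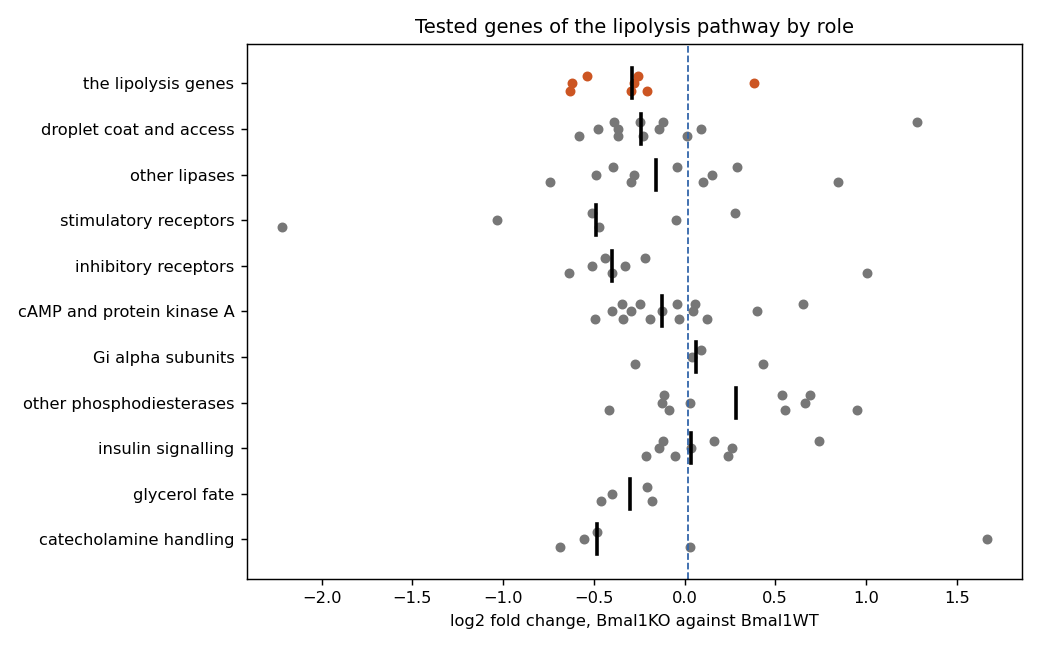
Fitted log2 fold change of Bmal1KO against Bmal1WT (horizontal axis) for the 8 lipolysis genes and the tested genes of 10 role lists, 1 point per gene, with a black bar at each median and a dashed line at the median of all genes tested (0.02). Both receptor lists sit left of the dashed line, at medians of -0.49 and -0.40, and the other phosphodiesterases right of it, at 0.28.

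The genes with profiles most like each member were found among the 8666 others with a mean of at least 10 CPM by the same root mean square difference over the 6 libraries. For Pnpla2 these were Lpl (0.04) and Grina (0.05), for Mgll Ywhab (0.06) and Lpl (0.06), and for Lipe Lrrc58 (0.096) and Lep (0.10), against medians of 0.36, 0.39 and 0.50 over all candidates. Lpl, which encodes lipoprotein lipase, was thus within 0.06 of both. For Abhd5 Fbxo7 (0.05) was among the nearest, for G0s2 the nearest were Plcg1 (0.05) and Clybl (0.06), and for Aqp7 Atrn (0.08) and Rtn2 (0.08). Adrb3 had no gene nearer than Slc2a10 (0.11) and Abat (0.11), and Pde3b was nearest to Kctd20 (0.06) and Fbxo31 (0.07).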

How the data were processed

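RNA of whole visceral fat was sequenced in 6 libraries made from an anchored oligo(dT) primer with amplification and transposase cutting, per the labels' protocols; such libraries do not mark the strand and carry no molecular identifiers. The authors deposited raw counts for each gene symbol; the submitters' processing notes name STAR 2.7.3a, mm10 and featureCounts. Annotation and treatment of reads on several genes: not given in the sources used here. Groups and replicate numbers came from the titles.

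Counts were tested with edgeR 4.0.16 (R 4.3.3): filterByExpr, TMM scaling, robust quasi-likelihood F-test without covariates, Benjamini-Hochberg adjustment over 13859 genes, threshold 0.05. The test was tried on simulated data. Fold changes are unshrunken coefficients, and the SE is the coefficient over the root of F. CPM uses TMM-scaled sizes; log2 CPM for profiles has a prior count of 2. Positions, exon lengths and overlaps are from GENCODE M21 (mm10); upstream sequences are from RefSeq (GRCm38.p6). Alternatives were DESeq2 1.42.0, limma 3.58.1 (voom), other scalings, filters and thresholds, a replicate block, and libraries left out. Members and lists were chosen with earlier results of these data known. Named from each role list were the 2 tested genes of smallest p, and for each member the 2 genes of nearest profile; some genes that this would name are not reported here. Other named genes were chosen after their values were seen.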

Additional observations from a re-analysis of the deposited data

How the results depend on the processing

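All 8 tested lipolysis genes kept their direction in each of 14 alternative fits, and none was called except G0s2, Adrb3 and Aqp7 without Bmal1KO replicate 1. With 1 library left out, 0 to 3 of them, 0 to 156 of all genes and 0 to 8 of the 82 pathway genes were called; all genes numbered 156 without Bmal1KO replicate 1, 6 without Bmal1KO replicate 2 and 1 without Bmal1WT replicate 1. Without both replicates numbered 1, 61 genes and 4 pathway genes were called, and Pde3b was at 0.02 with SE 0.24, hardly above 0. DESeq2 called 60 genes, and edgeR with no filter 186, of which 2 were pathway genes. The count of genes without overlap between groups was 0 of 8 with library size scaling (4.99% of all genes lower and 11.2% higher) and 3 to 6 with 1 library left out, the 6 without Bmal1KO replicate 1 (24.3% to 34% of all genes in either direction, the 34% without the same library). Library size scaling moved the median of all genes from 0.02 to 0.11. The fit with no filter moved it to 0.46, above Pde3b at 0.36 in that fit. Relative to the fat cell markers, G0s2 turned to 0.0028 with the mean log2 of the markers, Lipe to -0.054 without Bmal1WT replicate 1 (among libraries left out, highest 0.197 without Bmal1KO replicate 2) and -0.036 without Bmal1KO replicate 3, and Abhd5 to -0.12 without Bmal1KO replicate 3 (among libraries left out, highest 0.48 without Bmal1KO replicate 1). The log2 ratio between the highest and lowest tested member per length was 7.16 with merged exons and 6.69 with the longest transcript. Where not stated, the cause was not tested. With the replicate block 0 genes were called. Same-numbered libraries showed little shared deviation (r = -0.07, 0.09 and -0.03 for numbers 1 to 3). The labels do not say what a number marks, and so few libraries cannot settle it. Depth limits Adra2a, Adrb1 and Mc5r.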

Other observations

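Ratios of counts within a library, 7 of them chosen after the values were seen, put opposing genes of the pathway side by side. Adrb3 had 5.94, 4.64 and 4.85 counts per count of Pde3b in the Bmal1WT libraries against 3.12, 2.37 and 1.69 in the Bmal1KO libraries, so that the groups did not overlap (difference of log2 means -1.14, exact permutation p = 0.1, 0.35 after adjustment over the 7). Aqp7 had 0.199864, 0.191 and 0.181 counts per count of Pnpla2 in Bmal1WT and 0.150, 0.143 and 0.125 in Bmal1KO, again without overlap (-0.45, exact permutation p = 0.1, adjusted 0.35). In both cases 0.1 is the smallest p the design allows. Adrb3 and Pde3b already had the least alike profiles of the 28 pairs, and the ratios were picked with these values in view. The adjustment covers only the 7 ratios picked, and the share of all gene pairs without overlap was not computed. These p-values are thus a description. Pnpla2 per count of its inhibitor G0s2 was 2.15, 2.18 and 2.90 in Bmal1WT and 2.80, 3.09 and 3.40 in Bmal1KO, with overlap (0.37, exact permutation p = 0.2). Abhd5 per count of G0s2 was 0.364, 0.306 and 0.416 against 0.302, 0.463 and 0.637, and its lowest and highest values were both in Bmal1KO. Mgll per count of Pnpla2 stayed between 0.882 and 1.02 in all 6 libraries, and its highest value over its lowest, 1.16, was the smallest of the 7 ratios.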
